A study of Rattus norvegicus with 8 samples.

Results

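The comparison is of the adjacent normal oesophagus of rats fed a riboflavin-deficient diet (titled R0N+) with that of rats fed a riboflavin-normal diet (titled RcN+). Its members are the 2 normal tissue arrays whose titles carry R0N+ and the 2 whose titles carry RcN+, 4 of the 8 arrays in the series. The other 4 arrays hold the epithelial neoplasia of the same 4 animals. The sample descriptions give each animal a code of its own, so the 2 arrays of a diet are 2 animals and the diets were compared between animals, with no pairing.

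Every rat of both diets had been injected subcutaneously with N-nitrosomethylbenzylamine (NMBA), a nitrosamine carcinogen of the oesophagus, at 0.35 mg/kg, with 3 injections a week over 5 weeks, and was killed at week 25. The diets were given throughout. The RcN+ tissue is therefore carcinogen-exposed tissue on a normal diet, and no tissue without NMBA enters the comparison. The tissue was fixed and embedded in paraffin, a region of interest was cut out, and RNA was amplified with a kit for fixed tissue. The sources used here give no strain, sex or age. The series sets riboflavin deficiency against a normal riboflavin supply in a rat model of chemically induced oesophageal neoplasia.

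Riboflavin (vitamin B2) enters cells through carriers of the Slc52a family and is converted to the cofactors FMN and FAD, which flavin-dependent enzymes need for redox reactions in the respiratory chain, fatty acid oxidation, folate and vitamin B6 metabolism and glutathione reduction. Deficiency is known for lesions of squamous epithelia, such as those of the lips, tongue and oesophagus. The rat oesophagus is lined by a cornifying squamous epithelium, whose upper cells replace basal keratins with envelope precursors such as filaggrin and the small proline-rich proteins, and its muscle coat is largely striated.

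In R0N+ adjacent normal tissue, several genes of the cornifying and stressed epithelium stood above RcN+ tissue, led by Flg, Sprr1b and Serpinb2. The fatty acid elongase gene Elovl6 and the growth factor carrier gene Fgfbp1 were higher too, with the R0N+ and RcN+ arrays well apart. Several genes of striated muscle, connective tissue and the respiratory chain stood lower, led among muscle genes by Klhl41, Flnc, Xirp2 and Pdlim3. The medians of whole gene lists depended on single arrays. Without RcN+ array 2 the median difference was -0.06 for skeletal muscle, -0.09 for matrix and 0.02 for respiratory chain genes. For the suprabasal squamous genes it was -0.03 without RcN+ array 1. The measured genes of riboflavin transport and cofactor handling, and most flavin-dependent enzymes, had mean differences between the diets within 0.5 log2 units of 0. Both lists had median values of 5.07 to 5.43 on these arrays, near the median of 4.98 of the whole table. The part of low signal in the small differences was not tested. By limma's moderated test, 0 of 22093 genes (0%) passed a Benjamini-Hochberg adjusted p under 0.05, every adjusted p being 1, and 524 (2.37%) had an unadjusted p under 0.05, 292 of them higher (1.32%) and 232 lower (1.05%). The differences below are therefore descriptions of 4 arrays, in log2 units of the deposited values, with the standard error (SE) of the fit.

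The RcN+ arrays stood far apart from each other. The 2 RcN+ arrays correlated at 0.916 across genes, the lowest of all pairs of arrays, against 0.955 for the 2 R0N+ arrays. They also took opposite ends of the first principal component, which held 50.8% of the variance, with scores of -16.1 and 31.2 on the R0N+ arrays and 43.2 and -62.9 on the RcN+ arrays. The SD of the gene values was 1.55 and 1.38 on the R0N+ arrays and 1.33 and 1.75 on the RcN+ arrays. Of all 70580 probe sets, 1676 and 1748 were at the ceiling of the scale on the R0N+ arrays, and 1713 and 468 on the RcN+ arrays, so RcN+ array 2 stood apart. Both R0N+ values lay between the RcN+ values for 6817 genes (30.9%), and the diets were interleaved for 8306 (37.6%). Both R0N+ arrays were above both RcN+ arrays for 2614 genes (11.8%) and below them for 1940 (8.78%), together 20.6%, and these shares are the background for each count of genes without overlap. Among the upper 50 percent of genes ranked by mean the balance turned, with 962 of 11047 higher (8.71%) and 1136 lower (10.3%). An exact permutation test of 2 arrays against 2 cannot give a p below 0.333. This is also the share of the 2 against 2 labelings that leave a gene without overlap, in either direction together. The 20.6% of genes without overlap by diet lay below it.

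The tissue itself matched its label. The oesophageal keratin genes had high values on all arrays, Krt4 with 19.93 and 19.21 in R0N+ and 17.79 and 19.93 in RcN+ tissue, and Krt13 with 19.77 and 19.14 in R0N+ and 16.67 and 19.72 in RcN+ tissue. The skeletal actin gene Acta1 had 17.24 and 15.38 in R0N+ and 17.13 and 18.21 in RcN+ tissue, so each array also held muscle coat. The thyroid gene Tg had 4.42 and 4.59 in R0N+ and 4.61 and 4.17 in RcN+ tissue, below the table's median of 4.98, and the airway gene Scgb1a1 had 4.88 and 4.77 in R0N+ and 5.18 and 4.56 in RcN+ tissue. In bulk tissue, fewer cells of a type and less RNA per cell cannot be told apart.

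Riboflavin handling came first by its role. The carrier gene Slc52a2 had 4.57 and 4.76 in R0N+ and 4.83 and 4.40 in RcN+ tissue, and Slc52a3, the intestinal carrier, 5.48 and 5.20 in R0N+ and 5.23 and 5.11 in RcN+ tissue. The diets overlapped for both. Rfk, the riboflavin kinase that makes FMN, had 5.31 and 4.82 in R0N+ and 4.92 and 5.23 in RcN+ tissue, a difference of -0.01 (SE 0.25). It was the only measured gene of the list that makes a flavin cofactor. The FAD synthase gene Flad1 was not among those measured. Slc25a32, a mitochondrial carrier of folate and FAD, differed by -0.26 (SE 0.20), and the phosphatase gene Acp1 by 0.21 (SE 0.44). Enpp1, a nucleotide pyrophosphatase gene, varied widely within each diet, with 6.82 and 5.72 in R0N+ and 5.79 and 7.27 in RcN+ tissue, and its difference of -0.26 ran from -1.01 to 0.48 with an array left out. Among the 8 of 11 listed genes that were measured, 0 were higher without overlap and 1 was lower (12.5%). It was Enpp3, an ectoenzyme gene that splits nucleotide pyrophosphates, with 5.76 and 5.61 in R0N+ and 5.92 and 6.44 in RcN+ tissue (difference -0.49, SE 0.23). The median difference of the list was -0.05, against 0.02 for all genes.

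Of 93 measured flavin-dependent enzymes, 7 (7.53%) were higher and 8 (8.60%) lower without overlap, both below the 11.8% and 8.78% of all genes. Their median difference was 0.00, 86 lay within 0.5 of 0, and 2 lay beyond 1. Smox, the spermine oxidase, was the clearest higher one, with 5.27 and 5.24 in R0N+ against 4.97 and 4.86 in RcN+ tissue (difference 0.34, SE 0.13). Qsox1 and Gfer, which form disulphide bonds in secreted and mitochondrial proteins, differed by 0.26 each. Both R0N+ arrays were above both RcN+ arrays for these genes, with 5.23 and 5.09 against 4.91 and 4.91 for Qsox1. Cyb5r3, the NADH-cytochrome b5 reductase, had 6.03 and 6.24 in R0N+ and 6.48 and 6.91 in RcN+ tissue (-0.56, SE 0.25). Nox4, an oxidase that makes hydrogen peroxide, had 4.68 and 4.91 in R0N+ and 5.13 and 5.34 in RcN+ tissue (-0.44, SE 0.19). The differences of these named enzymes were all under 0.6 in size, while the lowest of the whole list was that of Fmo2 at -1.45. Of the 15 enzymes without overlap, 4 had a gap between the diets of at least 0.2.

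**Figure D1:**
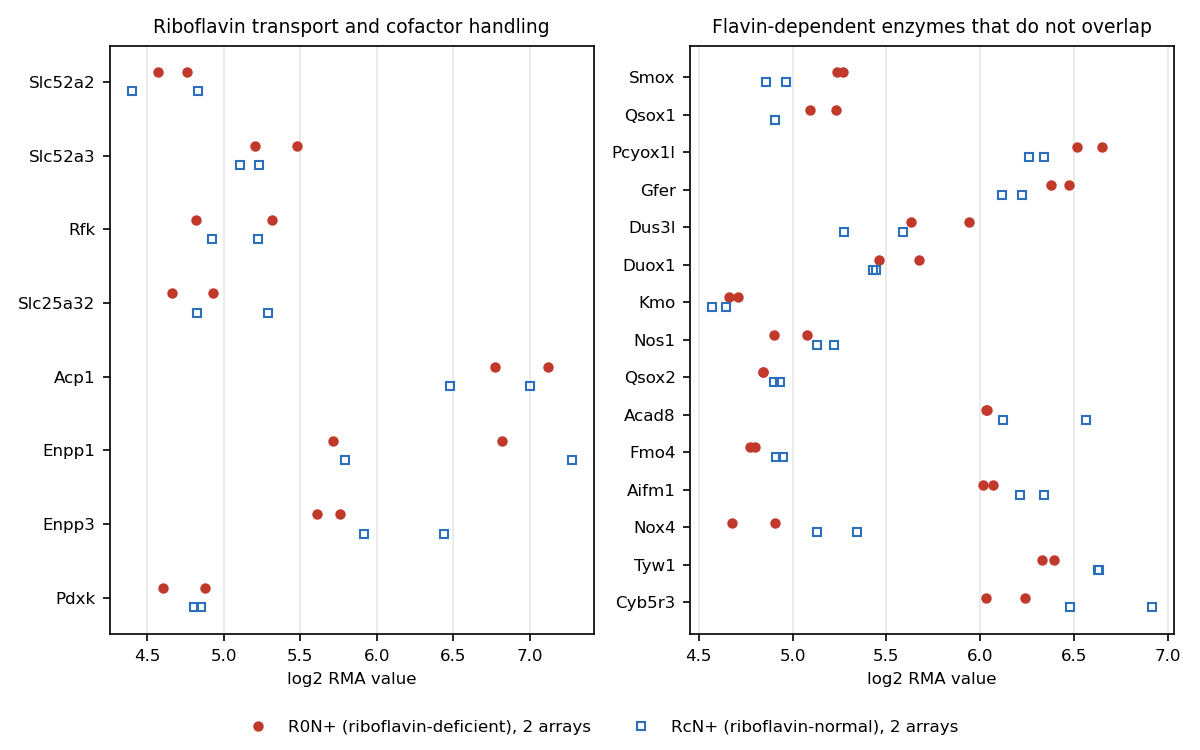
Deposited log2 values (horizontal axis) of riboflavin transport and cofactor genes (left panel) and of the 15 flavin-dependent enzymes whose diets did not overlap (right panel). Each point is an array, filled circles for the 2 R0N+ and open squares for the 2 RcN+ arrays. In the left panel only Enpp3 has both R0N+ points to one side of both RcN+ points.

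Flg, on chromosome 2, encodes profilaggrin, the precursor of the protein that packs keratin filaments in cornifying cells. It had 9.10 and 7.13 in R0N+ tissue against 5.28 and 4.72 in RcN+ tissue. Both R0N+ arrays lay above both RcN+ arrays, by a gap of 1.86 between the nearest arrays, the widest of any named gene. The difference was 3.12 (SE 0.81), or 8.68-fold, and it was 3.40 without RcN+ array 1 and 2.84 without RcN+ array 2. Without R0N+ array 2, it was 4.10, and without R0N+ array 1, 2.14.

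Sprr1b, also on chromosome 2, encodes a small proline-rich precursor that is cross-linked into the cornified envelope. It had 11.47 and 10.56 in R0N+ against 8.06 and 9.60 in RcN+ tissue, a difference of 2.18 (SE 0.62), with 1.41 left without RcN+ array 1 and 2.96 without RcN+ array 2. Related envelope genes were separated mainly by RcN+ array 1. Sprr2d had 18.57 and 18.57 in R0N+ and 13.47 and 18.39 in RcN+ tissue (2.64, SE 1.48). Csta, the cystatin A inhibitor of cysteine proteases in the envelope, had 14.35 and 13.07 in R0N+ and 9.64 and 12.91 in RcN+ tissue (2.43, SE 1.12). For both, the higher RcN+ array came within 0.2 of the lower R0N+ array. Probe sets of the Sprr, stefin, RT1 and beta-defensin families can bind transcripts of near-identical relatives, so members of one family are uncertain one by one.

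The suprabasal squamous list held 50 measured genes, of which 11 (22%) were higher without overlap, against 11.8% of all genes, and 0 were lower. Smaller differences were those of Ovol1, a transcription factor gene of epithelial differentiation (0.44, SE 0.18), of the airway-type protease gene Tmprss11d (0.57, SE 0.48), of the calmodulin-like gene Calml3 (0.34, SE 0.25) and of Krt10, the keratin of cornifying skin (0.78, SE 0.46). Ovol1 had 5.43 and 5.35 in R0N+ and 4.91 and 5.00 in RcN+ tissue. The list's median value was 9.25 and 7.83 on the R0N+ arrays and 7.35 and 8.57 on the RcN+ arrays, so as a whole the list overlapped. Its median difference was 0.46, against 0.02 for all genes, and it was -0.03 without RcN+ array 1 and 1.27 without RcN+ array 2, and 0.17 and 1.10 without R0N+ arrays 1 and 2. By contrast, of 26 basal keratinocyte genes 2 were higher and 2 lower (7.69% each), with a median difference of 0.03. Muscle markers varied between the arrays beside these genes, and 9 of 49 skeletal muscle markers (18.4%, against 8.78% of all genes) were lower without overlap. Their summed level on the log2 scale overlapped between the diets, with 20.30 and 18.64 in R0N+ and 19.61 and 20.68 in RcN+ tissue. Every array thus held them. Their part in the squamous values was not tested.

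Genes of the stressed, alarm-state keratinocyte gave a like count, with 8 of 34 (23.5%) higher and 2 (5.88%) lower. Serpinb2, an inhibitor of plasminogen activators, had 7.81 and 7.61 in R0N+ and 6.69 and 6.57 in RcN+ tissue. Both R0N+ arrays were above both RcN+ arrays and each diet's arrays were close together. The difference was 1.08 (SE 0.44), and 1.14 and 1.02 without RcN+ arrays 1 and 2. Il1a, the alarm cytokine interleukin 1 alpha that keratinocytes store, had 5.77 and 5.39 in R0N+ and 4.74 and 4.94 in RcN+ tissue (0.74, SE 0.21). Gjb2, which encodes the gap junction protein connexin 26 of activated epithelium, had 8.13 and 7.03 in R0N+ and 6.57 and 6.40 in RcN+ tissue (1.10, SE 0.41), and its difference was 0.55 without R0N+ array 1. Il36a, an epithelial cytokine of the same family as Il1a, differed by 0.69 (SE 0.55), the EGF receptor ligand gene Areg by 0.32 (SE 0.13) and the stefin gene Stfa2 by 0.47 (SE 0.36). The alarmin gene Il33, whose protein is also made by stromal and endothelial cells, went the other way with 5.30 and 5.34 in R0N+ and 5.42 and 6.50 in RcN+ tissue (-0.64, SE 0.37). The list's median difference was 0.24, and it was 0.05 without RcN+ array 1.

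Promoters of the leading genes and of some others were searched for the AP-1 motif, since AP-1 factors are known regulators of envelope and stress genes of keratinocytes. The form searched was a loose one, TGANTCA with any base in the middle, on both strands. The window was the 300 bases from 250 before to 50 after the start of transcription (RefSeq, GRCr8). This loose form was found in 5 of the 10 leading higher genes with a promoter entry. It was found in 0 of the 11 leading lower genes with one, and in 7.33% of all 33469 promoters of that length. The 5 were Sprr1b, Serpinb2, the defensin gene Defb18, the olfactory receptor gene Or10d1b, with its match after the start site, and the homeobox gene Noto, whose other probe set did not share its difference. The Noto probe set used carries another chromosome in its identifier than that of the promoter searched. That match may therefore not belong to the transcript measured. The match in Sprr1b (chr2:180706306-180706605, minus strand) starts at -116 from the start site and that in Serpinb2 (chr13:24055771-24056070, plus strand) at -189. The middle base is C in the matches of Defb18 and Or10d1b, A in that of Sprr1b and T in those of Serpinb2 and Noto. The stricter motif has C or G there, so these counts include matches that are not of the stricter form. The promoters of Sprr1b and Serpinb2 are shown 5′ to 3′ with the loose match in capitals, as the examples among the epithelial genes.
Sprr1b: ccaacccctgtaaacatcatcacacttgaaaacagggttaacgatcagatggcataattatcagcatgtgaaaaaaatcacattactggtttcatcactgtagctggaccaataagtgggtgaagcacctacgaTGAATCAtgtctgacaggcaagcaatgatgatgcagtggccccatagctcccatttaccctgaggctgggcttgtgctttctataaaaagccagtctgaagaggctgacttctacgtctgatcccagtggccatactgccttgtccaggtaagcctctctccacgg
Serpinb2: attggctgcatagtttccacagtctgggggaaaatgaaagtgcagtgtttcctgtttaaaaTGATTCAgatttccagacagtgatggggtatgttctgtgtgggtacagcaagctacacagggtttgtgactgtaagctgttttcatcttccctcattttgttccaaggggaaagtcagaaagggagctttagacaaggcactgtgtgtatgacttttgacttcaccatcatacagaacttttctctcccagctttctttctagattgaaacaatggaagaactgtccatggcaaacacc
Flg, Fgfbp1 and Gjb2 had no match in this window, and Il1a had one at -12. A match is a description of the letters and not a site shown to be bound.

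Among the AP-1 and other immediate early genes themselves, 7 of 30 (23.3%) were higher and 1 (3.33%) lower. Egr1, a rapid-response zinc finger gene, had 8.90 and 8.91 in R0N+ and 7.75 and 8.30 in RcN+ tissue (0.88, SE 0.36). Jun, an AP-1 subunit, had 6.64 and 6.31 in R0N+ and 5.39 and 6.29 in RcN+ tissue (0.63, SE 0.32), and so was separated by 0.02 only. Ccn2, a matricellular growth factor gene, differed by 0.41 (SE 0.14) and Egr2 by 0.53 (SE 0.25). The list's median difference was 0.09.

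Fgfbp1 encodes a carrier that releases fibroblast growth factors from the matrix. It had 7.44 and 7.22 in R0N+ against 6.43 and 6.23 in RcN+ tissue, and arrays of a diet differed by little. The difference was 1.0 (SE 0.20), and 1.10 and 0.90 without RcN+ arrays 1 and 2. Elovl6, which lengthens saturated and monounsaturated long-chain fatty acids, had 7.89 and 7.97 in R0N+ against 6.70 and 6.71 in RcN+ tissue. Arrays of a diet were within 0.1 of each other, and the difference was 1.23 (SE 0.20, limma unadjusted p = 0.00067) and 1.19 to 1.27 whichever array was left out. The probe set used carries no chromosome in its identifier, and the other 2 probe sets of Elovl6 gave 0.44 and 0.38. Of the fatty acid and sterol synthesis list, 4 of 38 genes (10.5%), Elovl6 among them, were higher without overlap and 4 were lower. The others on the higher side were the desaturase gene Scd2, the lipid synthesis regulator gene Srebf1 and the sterol synthesis gene Lss, with gaps under 0.05. Elovl1, another elongase gene, had a larger mean difference of 1.41 (SE 0.70), but the diets overlapped, with 10.96 and 9.54 in R0N+ and 8.10 and 9.58 in RcN+ tissue. The desaturase genes Scd and Fads2 had differences of -0.29 (SE 0.99) and -0.58 (SE 0.25), both lower without overlap, and that of Fads2 was -0.25 without RcN+ array 2.

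The remaining leading higher genes were of mixed kind. Defb18, a beta-defensin gene, had 7.44 and 7.30 in R0N+ and 6.36 and 5.08 in RcN+ tissue (1.65, SE 0.40), and its difference was 2.29 without RcN+ array 1 and 1.01 without RcN+ array 2. Nek1, a kinase gene of cilia and DNA damage signalling, had 7.27 and 7.40 in R0N+ and 6.51 and 6.11 in RcN+ tissue (1.03, SE 0.24), but its other probe set gave 0.14. The homeobox gene Noto and the microRNA gene Mir325 were likewise high on the probe set chosen (1.84 and 1.58) and near 0 on their other one (0.25 and 0.24). For both, the probe set chosen carries another chromosome in its identifier than that of the gene. The zinc finger genes Zfp955a and Zfp347 both differed by 0.93. The others were the pseudogenes Spata45-ps1 (1.56) and Pdcl1-ps1 (1.32), AAdacl4fm3l1 (1.19) and the olfactory receptor gene Or10d1b (0.92). Together the 15 leading higher genes had gaps of 0.74 to 1.86, and 13 had an unadjusted p under 0.05. They were chosen for those gaps among 1235 eligible genes, so gap and difference describe them and test nothing.

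**Figure D2:**
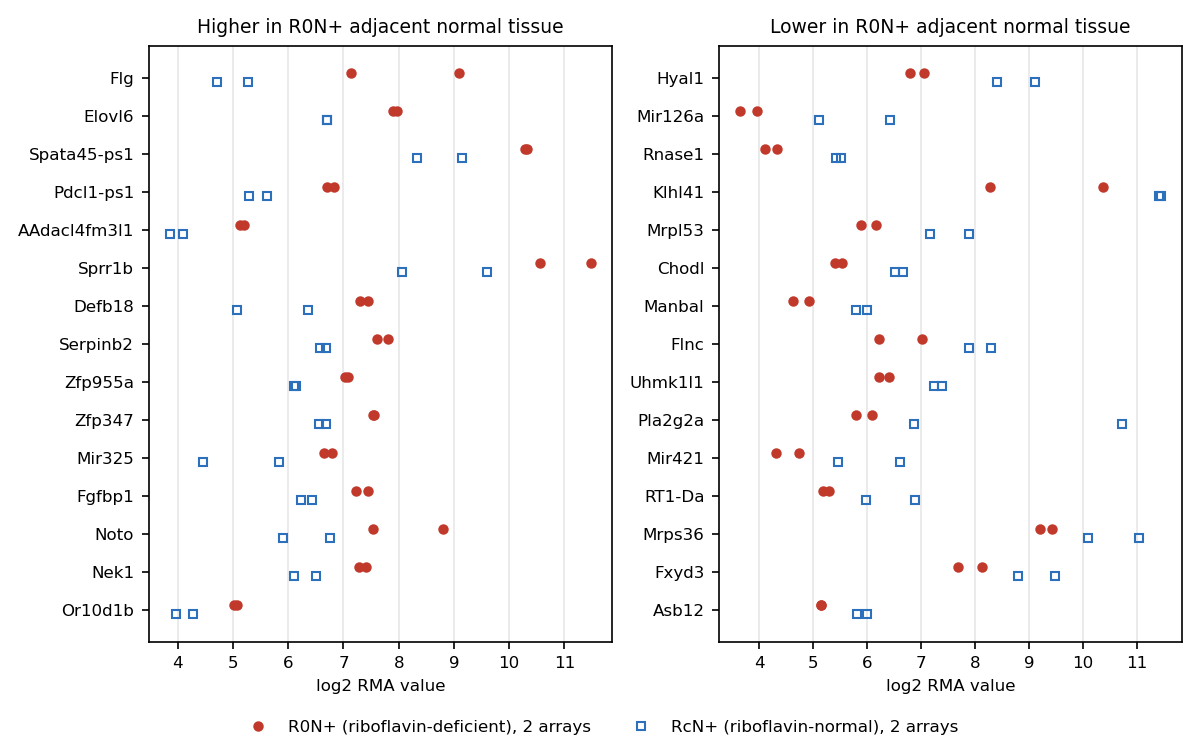
Deposited log2 values (horizontal axis) of the 15 genes with the widest gap in each direction, with those higher in R0N+ tissue on the left and those lower on the right. Filled circles are the 2 R0N+ arrays and open squares the 2 RcN+ arrays. Elovl6 has both pairs tightly together, whereas Flg, Klhl41 and Pla2g2a have 1 array of a diet far from the other.

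At the other end, Hyal1, a lysosomal hyaluronidase gene, had 7.05 and 6.79 in R0N+ against 9.10 and 8.41 in RcN+ tissue. The R0N+ arrays were both lower, with a gap of -1.36, the widest of the lower genes. The difference was -1.83 (SE 0.46), and -1.49 and -2.18 without RcN+ arrays 1 and 2. Rnase1, a secreted ribonuclease gene, had 4.33 and 4.11 in R0N+ and 5.52 and 5.42 in RcN+ tissue (-1.25, SE 0.18, limma unadjusted p = 0.00034). Chodl, a membrane C-type lectin gene, had 5.41 and 5.54 in R0N+ and 6.51 and 6.67 in RcN+ tissue (-1.12, SE 0.14, limma unadjusted p = 0.00018). Arrays of one diet lay close together for both genes. Pla2g2a, which encodes a secreted phospholipase A2 of inflamed and glandular tissue, had 5.80 and 6.09 in R0N+ and 6.87 and 10.72 in RcN+ tissue. Its difference of -2.86 (SE 1.12) was -4.78 without RcN+ array 1 and -0.93 without RcN+ array 2, so most of its size came from RcN+ array 2. Fxyd3, an epithelial regulator of the sodium pump, had 7.68 and 8.12 in R0N+ and 8.79 and 9.47 in RcN+ tissue (-1.23, SE 0.48). All 15 leading lower genes, chosen in the same way among 1350, had an unadjusted p under 0.05, with gaps of -0.66 to -1.36.

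Of these 15, 3 belong to striated muscle. Klhl41, a Kelch protein gene needed for sarcomere upkeep, had 10.36 and 8.28 in R0N+ against 11.40 and 11.44 in RcN+ tissue. Both RcN+ arrays were nearly equal, and the difference of -2.10 (SE 0.66) was -2.12 and -2.08 without RcN+ arrays 1 and 2, but -3.14 and -1.06 without R0N+ arrays 1 and 2. Flnc, the muscle filamin gene, had 7.02 and 6.23 in R0N+ and 8.30 and 7.88 in RcN+ tissue (-1.47, SE 0.30). Asb12, a SOCS-box protein gene of muscle, had 5.14 and 5.15 in R0N+ and 5.81 and 6.0 in RcN+ tissue (-0.76, SE 0.22). In the skeletal muscle list, Xirp2, an actin-binding protein gene of cell junctions in muscle, had 12.80 and 10.75 in R0N+ and 14.74 and 13.38 in RcN+ tissue (-2.28, SE 0.84). Pdlim3, a Z-disc gene, had 7.81 and 6.81 in R0N+ and 9.29 and 8.41 in RcN+ tissue (-1.53, SE 0.49), and Cav3, the muscle caveolin gene, differed by -0.35 (SE 0.14). R0N+ array 2 was the lower of the diet's pair for Klhl41, Flnc, Xirp2 and Pdlim3.

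The promoter of Klhl41 is shown because it carries, in capitals, a loose form of the core motif of MEF2 (CTA and TAG with any 4 bases between them), a factor family known to drive muscle genes. It lies at chr3:74841868-74842167 on the plus strand (RefSeq, GRCr8), with the match starting at -142.
Klhl41: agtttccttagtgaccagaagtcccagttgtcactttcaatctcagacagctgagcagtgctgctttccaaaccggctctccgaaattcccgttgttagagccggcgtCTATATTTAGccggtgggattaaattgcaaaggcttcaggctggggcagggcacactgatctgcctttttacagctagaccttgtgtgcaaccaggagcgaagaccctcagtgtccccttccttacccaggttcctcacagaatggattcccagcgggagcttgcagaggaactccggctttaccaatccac
This loose form was found on either strand in 2 of the 11 leading lower genes with a promoter entry, the other being Mrpl53, in 0 of the 10 leading higher genes, and in 3.84% of all promoters. The 4 middle bases are all A or T in Klhl41 but include G and C in Mrpl53. The stricter motif has only A or T there, so these counts include matches that are not MEF2 cores. Flnc and Asb12 had no match in this window.

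All 49 skeletal muscle markers had a difference below 0, with a median of -0.75, but only 9 (18.4%, against 8.78% of all genes) were lower without overlap and 0 were higher. The median value of the list was 10.43 and 8.66 on the R0N+ arrays and 9.55 and 11.44 on the RcN+ arrays, so R0N+ array 1 was above RcN+ array 1. Its median difference was -1.40 without RcN+ array 1 and -0.06 without RcN+ array 2, and -1.34 and -0.19 without R0N+ arrays 1 and 2. The abundant contractile and energy genes Ckm (14.29 and 11.27 in R0N+, 12.46 and 15.47 in RcN+ tissue) and Tnnt3 (16.83 and 15.82 in R0N+, 15.95 and 17.16 in RcN+ tissue) overlapped. Of 20 smooth muscle markers 5 (25%) were lower without overlap and all 20 had a difference below 0, with a median of -0.72 that was -0.15 without RcN+ array 2. Cnn1, the smooth muscle calponin gene, had 7.82 and 7.61 in R0N+ and 8.36 and 12.09 in RcN+ tissue (-2.51, SE 1.07), which was -0.65 without RcN+ array 2, and its other probe set gave -0.01. The smooth muscle median was -1.16 without RcN+ array 1, and -1.14 and -0.38 without R0N+ arrays 1 and 2.

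Connective tissue had the largest share of any list on the lower side, with 20 of 42 extracellular matrix and fibroblast genes (47.6%, against 8.78%). On the higher side there were 0, and the median difference was -0.70. Of the 20, 5 had a gap between the diets of at least 0.2. Postn, which encodes the matricellular protein periostin, had 5.32 and 5.19 in R0N+ and 5.70 and 6.57 in RcN+ tissue (-0.88, SE 0.32). Col1a1, a chain of type I collagen, had 6.48 and 6.45 in R0N+ and 6.77 and 7.67 in RcN+ tissue (-0.76, SE 0.28). For both, RcN+ array 2 was the higher of its pair and RcN+ array 1 lay closer to R0N+ tissue. Without RcN+ array 2 the differences were -0.44 for Postn and -0.31 for Col1a1. This held with larger distances for Col3a1 (6.30 and 6.14 in R0N+, 6.50 and 9.22 in RcN+ tissue), for the fibronectin gene Fn1 (6.35 and 6.03 in R0N+, 6.40 and 10.61 in RcN+ tissue) and for the proteoglycan gene Dcn (10.22 and 10.30 in R0N+, 10.47 and 15.78 in RcN+ tissue). The list's median value was 5.57 and 5.73 on the R0N+ arrays and 5.73 and 6.67 on the RcN+ arrays. Without RcN+ array 2 its median difference was -0.09, and without RcN+ array 1 it was -1.25, so most of its size rested on RcN+ array 2.

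**Figure D3:**
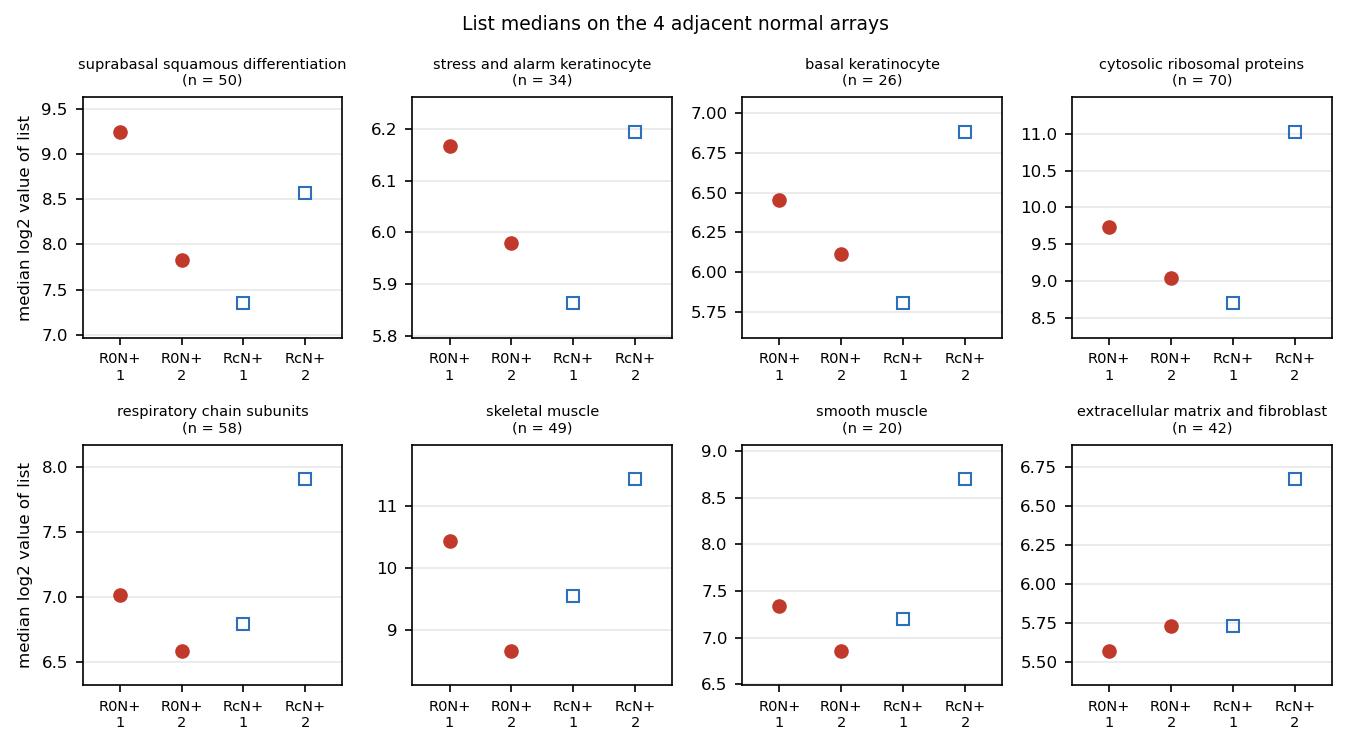
Median deposited log2 value (vertical axis, not starting at 0) of 8 gene lists on each of the 4 adjacent normal arrays, with the number of measured genes above each panel. Filled circles are R0N+ and open squares RcN+ arrays. RcN+ array 2 has the highest median of the 4 arrays in every panel but suprabasal squamous differentiation, and RcN+ array 1 the lowest in the 4 upper panels.

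Cells that travel with stroma gave like counts at lower signal. Of 17 endothelial markers 6 (35.3%) were lower and 1 (5.88%) higher. Of 19 macrophage markers 7 (36.8%) were lower and 0 higher, and of 18 complement genes 5 (27.8%) were lower and 0 higher. Among those without overlap, 2 of 7 endothelial, 0 of 7 macrophage and 2 of 5 complement genes had a gap of at least 0.2. The median differences of these lists were -0.10, -0.14 and -0.29, and the last was -0.11 without RcN+ array 2 and -0.61 without RcN+ array 1. Cdh5, the endothelial cadherin gene, had 5.84 and 5.70 in R0N+ and 6.18 and 6.61 in RcN+ tissue (-0.62, SE 0.27). Mrc1, the mannose receptor gene of tissue macrophages, had 5.43 and 5.48 in R0N+ and 5.60 and 6.34 in RcN+ tissue (-0.52, SE 0.24), which was -0.15 without RcN+ array 2. C1s, a protease gene of the classical complement pathway, had 5.65 and 5.82 in R0N+ and 5.98 and 9.27 in RcN+ tissue, and its difference of -1.89 (SE 0.95) was -0.24 without RcN+ array 2 and -3.54 without RcN+ array 1. Cfd, complement factor D, which fat cells also make, had arrays of each diet close together, with 6.32 and 6.41 in R0N+ and 6.80 and 6.74 in RcN+ tissue (-0.41, SE 0.16). The mast cell protease gene Cpa3 had 5.52 and 5.47 in R0N+ and 6.0 and 6.64 in RcN+ tissue (-0.82, SE 0.35), as the only one of 14 mast cell markers without overlap. The 12 B and plasma cell markers all overlapped.

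Inflammatory signals went both ways. Of 46 cytokine and chemokine genes, 9 (19.6%) were higher and 7 (15.2%) lower, with a median difference of 0.05 that was -0.09 without RcN+ array 2. Ccl7, a monocyte chemokine gene, had 5.26 and 5.79 in R0N+ and 4.82 and 4.84 in RcN+ tissue (0.69, SE 0.32), and Cxcl17, a chemokine gene of mucosal epithelium, 6.44 and 6.35 in R0N+ and 6.0 and 5.96 in RcN+ tissue (0.42, SE 0.15). Ccl11, which encodes the eosinophil chemokine eotaxin, had 6.21 and 6.44 in R0N+ and 6.63 and 8.26 in RcN+ tissue (-1.12, SE 0.53), and its difference was -0.30 without RcN+ array 2 and -1.93 without RcN+ array 1. Cxcl13, the B cell chemokine gene, had 5.45 and 5.44 in R0N+ and 5.84 and 6.39 in RcN+ tissue (-0.67, SE 0.45), which was -0.40 without RcN+ array 2. In the NF-kB and eicosanoid list 5 of 41 (12.2%) lay on each side, the adhesion molecule gene Icam1 at 0.23 (SE 0.12) and the cyclooxygenase gene Ptgs1 at -0.29 (SE 0.15).

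Of 31 interferon and antigen presentation genes, 8 (25.8%) were lower and 1 (3.23%) higher without overlap, and the diets overlapped for the others. The list's median difference was -0.03, against 0.02 for all genes. RT1-Da, an MHC class II chain gene of antigen-presenting cells, had 5.29 and 5.18 in R0N+ and 5.98 and 6.88 in RcN+ tissue (-1.20, SE 0.34), and -0.75 without RcN+ array 2. Gbp2, an interferon-induced GTPase gene, had 4.48 and 4.52 in R0N+ and 4.93 and 5.08 in RcN+ tissue (-0.50, SE 0.13). The one on the higher side was Isg15, the interferon-induced ubiquitin-like gene, with 6.33 and 6.20 in R0N+ and 6.12 and 5.84 in RcN+ tissue (0.28, SE 0.17). Lymphocyte markers were divided, 4 of 23 T and NK cell genes (17.4%) being higher and 5 (21.7%) lower, against 11.8% and 8.78% of all genes. Il7r, the interleukin 7 receptor gene, had 4.88 and 4.66 in R0N+ and 5.41 and 5.33 in RcN+ tissue (-0.60, SE 0.14). Of 17 neutrophil markers 4 (23.5%) were higher and 2 (11.8%) lower, with Cxcr2, a receptor for neutrophil chemokines, at 0.36 (SE 0.16).

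**Figure D4:**
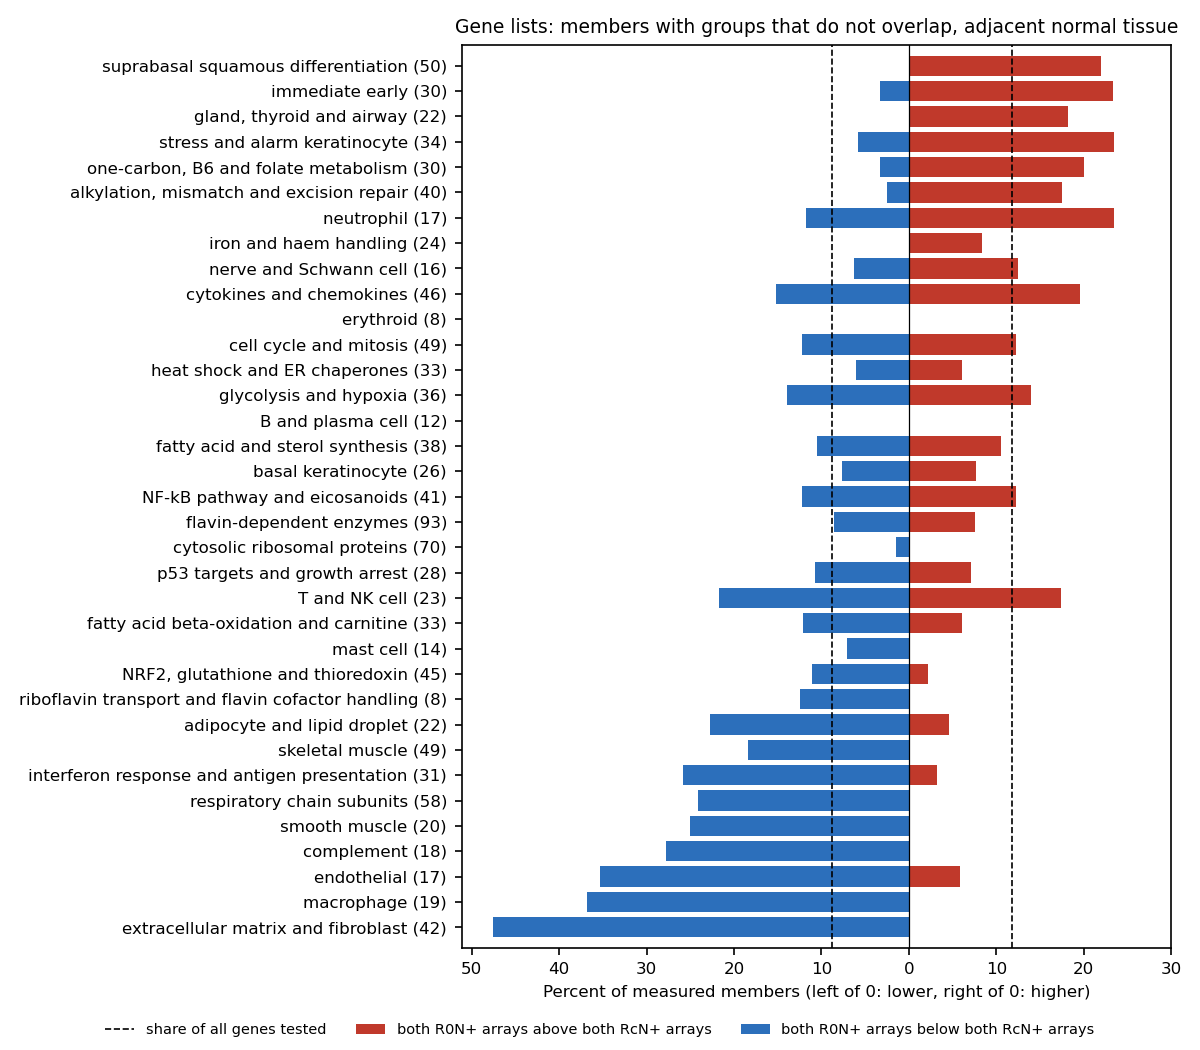
Percent of the measured members of each gene list (number in brackets) with both R0N+ arrays above (right) or below (left) both RcN+ arrays. Dashed lines mark the shares of all genes, 11.8% on the right and 8.78% on the left. Squamous differentiation, stress and immediate early genes reach past the right line, and extracellular matrix, macrophage and endothelial genes reach farthest past the left one.

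Respiratory chain subunits, among them the flavoprotein complexes I and II, were lower without overlap for 14 of 58 genes (24.1%) and higher for 0. The median difference was -0.45, which was 0.02 without RcN+ array 2, -1.01 without RcN+ array 1, and -0.59 and -0.20 without R0N+ arrays 1 and 2. Ndufb4, a complex I subunit gene, had 6.75 and 6.55 in R0N+ and 7.08 and 7.19 in RcN+ tissue (-0.49, SE 0.31). Ndufs4, another complex I subunit gene, had 6.71 and 7.03 in R0N+ and 7.19 and 9.19 in RcN+ tissue (-1.32, SE 0.63). Sdhd, the membrane anchor of complex II, had 5.23 and 5.27 in R0N+ and 5.36 and 6.77 in RcN+ tissue (-0.81, SE 0.43). For Ndufs4 and Sdhd most of the size again lay in RcN+ array 2, the difference of Ndufs4 being -0.32 without it and -2.32 without RcN+ array 1. A pair of genes for mitochondrial proteins stood among the leading lower genes. Mrpl53 had 6.18 and 5.88 in R0N+ and 7.16 and 7.89 in RcN+ tissue (-1.49, SE 0.28), and Mrps36 9.20 and 9.42 in R0N+ and 10.09 and 11.03 in RcN+ tissue (-1.25, SE 0.32).

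The cytosolic ribosomal proteins, of 70 genes, showed how far the RcN+ arrays lay apart. Their median value was 9.74 and 9.05 on the R0N+ arrays and 8.70 and 11.03 on the RcN+ arrays. For 45 of them the R0N+ values lay between the RcN+ values, and 1 (1.43%) was lower without overlap. The median difference of -0.28 became 0.50 without RcN+ array 2 and -1.16 without RcN+ array 1. The respiratory, muscle and matrix lists above shared this order of the 2 RcN+ arrays. With the SD of each array's gene values as a covariate, the difference was -1.03 for Ndufs4 and -0.61 for Col1a1 (-1.32 and -0.76 without the covariate). It was -1.95 for Klhl41 and -2.35 for Xirp2 (-2.10 and -2.28 without it). Beyond leaving out arrays and such refits, the part of array quality in the differences of these lists was not tested.

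Other pathways that riboflavin bears on had shares on both sides of the 11.8% higher and 8.78% lower of all genes. Of 33 genes of fatty acid oxidation 2 (6.06%) were higher and 4 (12.1%) lower, with a median of -0.17, which was 0.16 without RcN+ array 2 and -0.56 without RcN+ array 1. Of 45 genes of the NRF2, glutathione and thioredoxin system, 1 (2.22%) was higher and 5 (11.1%) lower, among them the glutathione peroxidase gene Gpx1 with 9.02 and 8.74 in R0N+ and 9.22 and 9.60 in RcN+ tissue (-0.52, SE 0.58). Of 30 one-carbon, vitamin B6 and folate genes, 6 (20%) were higher and 1 (3.33%) lower, with a median of 0.00. Gcsh, a carrier protein gene of mitochondrial glycine cleavage, was the clearest, with 7.30 and 7.26 in R0N+ and 6.44 and 6.82 in RcN+ tissue (0.66, SE 0.29). Both R0N+ arrays were close together and above both RcN+ arrays.

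DNA repair genes had 7 of 40 members (17.5%) higher and 1 (2.50%) lower, with a median of 0.03. Ogg1, the glycosylase gene that removes oxidised guanine, had 5.62 and 5.58 in R0N+ and 5.29 and 4.90 in RcN+ tissue (0.50, SE 0.16). Chek2, a checkpoint kinase gene, had 6.08 and 6.09 in R0N+ and 5.85 and 5.72 in RcN+ tissue (0.30, SE 0.13). Cell cycle genes were evenly divided, with 6 of 49 (12.2%) on each side. Birc5, which encodes the mitotic inhibitor of apoptosis survivin, had 5.54 and 5.18 in R0N+ and 4.60 and 4.47 in RcN+ tissue (0.83, SE 0.18), whereas the proliferation marker Mki67 overlapped, with 6.58 and 5.89 in R0N+ and 5.71 and 5.94 in RcN+ tissue. Of 36 glycolysis and hypoxia genes 5 (13.9%) were on each side. Pfkfb4, a regulator of glycolytic flux, had 6.33 and 5.99 in R0N+ and 5.58 and 5.53 in RcN+ tissue (0.61, SE 0.18), and P4ha1, a prolyl hydroxylase gene for collagen, 6.47 and 6.29 in R0N+ and 6.78 and 7.84 in RcN+ tissue (-0.93, SE 0.41, and -0.40 without RcN+ array 2). Of 28 p53 targets 2 (7.14%) were higher and 3 (10.7%) lower, against 11.8% and 8.78% of all genes. Heat shock and ER chaperones, with 2 of 33 (6.06%) on each side, were below both shares.

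Probe sets for microRNA genes were in both leading groups. Mir421 had 4.32 and 4.75 in R0N+ and 6.60 and 5.46 in RcN+ tissue (-1.50, SE 0.39), and the probe set annotated as Mir126a 3.65 and 3.96 in R0N+ and 5.10 and 6.42 in RcN+ tissue (-1.96, SE 0.60). R0N+ values were the lower ones for both genes. The sequence table pairs the symbol Mir126a with the differently named rno-miR-126b, so that gene's identity is uncertain here. Which product of the gene the probes read is not given in the sources used here. The mature products of Mir421 on chromosome X (RefSeq, GRCr8) are shown 5′ to 3′ with the seed, bases 2 to 8, in capitals, as the leading microRNA gene with an unambiguous entry. Its difference was -0.93 without RcN+ array 1 and -2.07 without RcN+ array 2.
rno-miR-421-3p: aUCAACAGacauuaauuggg
rno-miR-421-5p: gGCCUCAUuaaauguuuguug
The seeds of the 2 arms differ.

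The neoplasia of the same animals gave a second set of arrays for each diet. Among genes higher without overlap in adjacent normal tissue by a gap of at least 0.5, 7 of 47 (14.9%) were also higher in R0N+ neoplasia and 10 (21.3%) were lower, against 26% and 23.2% of all genes in neoplasia. Over all 2614 genes higher without overlap in adjacent normal tissue, whatever the gap, the order was the other way, with 752 (28.8%) also higher in R0N+ neoplasia and 354 (13.5%) lower. Among the genes lower by such a gap, 15 of 41 (36.6%) were lower in R0N+ neoplasia too and 3 (7.32%) were higher, and over all 1940 lower genes 537 (27.7%) were lower and 309 (15.9%) higher. Epithelial genes were among those on opposite sides. Sprr1b had 9.42 and 9.04 in R0N+ and 13.59 and 12.50 in RcN+ neoplasia, a difference of -3.81 (SE 0.62) against 2.18 in adjacent normal tissue. Serpinb2 differed by -1.47 in neoplasia, Csta by -3.53, Fgfbp1 by -0.82, Elovl6 by -0.72 and Gjb2 by -0.55. Of the squamous list, 34 of 50 genes (68%) were lower without overlap in R0N+ neoplasia, against 0 in R0N+ adjacent normal tissue. Other lists had like or larger shares lower in R0N+ neoplasia, with 63 of 70 ribosomal protein genes (90%), 26 of 33 heat shock and chaperone genes (78.8%) and 26 of 45 NRF2 and glutathione genes (57.8%). The SD of the gene values also differed between the diets there, at 1.39 and 1.37 on the R0N+ and 1.59 and 1.62 on the RcN+ neoplasia arrays, and its part in these counts was not tested. Of the 15 leading higher genes, 1 (6.67%) was also higher without overlap in neoplasia, Zfp347 with 0.93 and 0.71, and 4 (26.7%) were lower. Of the 15 leading lower genes, 5 (33.3%) were also lower in neoplasia and 0 were higher. Among these were Uhmk1l1 (-0.99 in adjacent normal tissue and -1.25 in neoplasia) and the muscle gene Klhl41 (-2.10 and -0.83). Of the matrix list 11 genes were lower without overlap in both tissues.

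The difference between the diet effects of the 2 tissues was tested within animals with limma. No gene passed an adjusted p under 0.05 (0 of 22093, 0%), and 760 (3.44%) had an unadjusted p under 0.05. The adjacent normal values that chose the named genes enter this test, so their values here are descriptions. The difference of differences was 6.0 (SE 0.90) for Sprr1b, 3.82 (SE 1.07) for Flg, 2.55 (SE 0.59) for Serpinb2, 1.95 (SE 0.28) for Elovl6 and 1.82 (SE 0.23) for Fgfbp1.

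**Figure D5:**
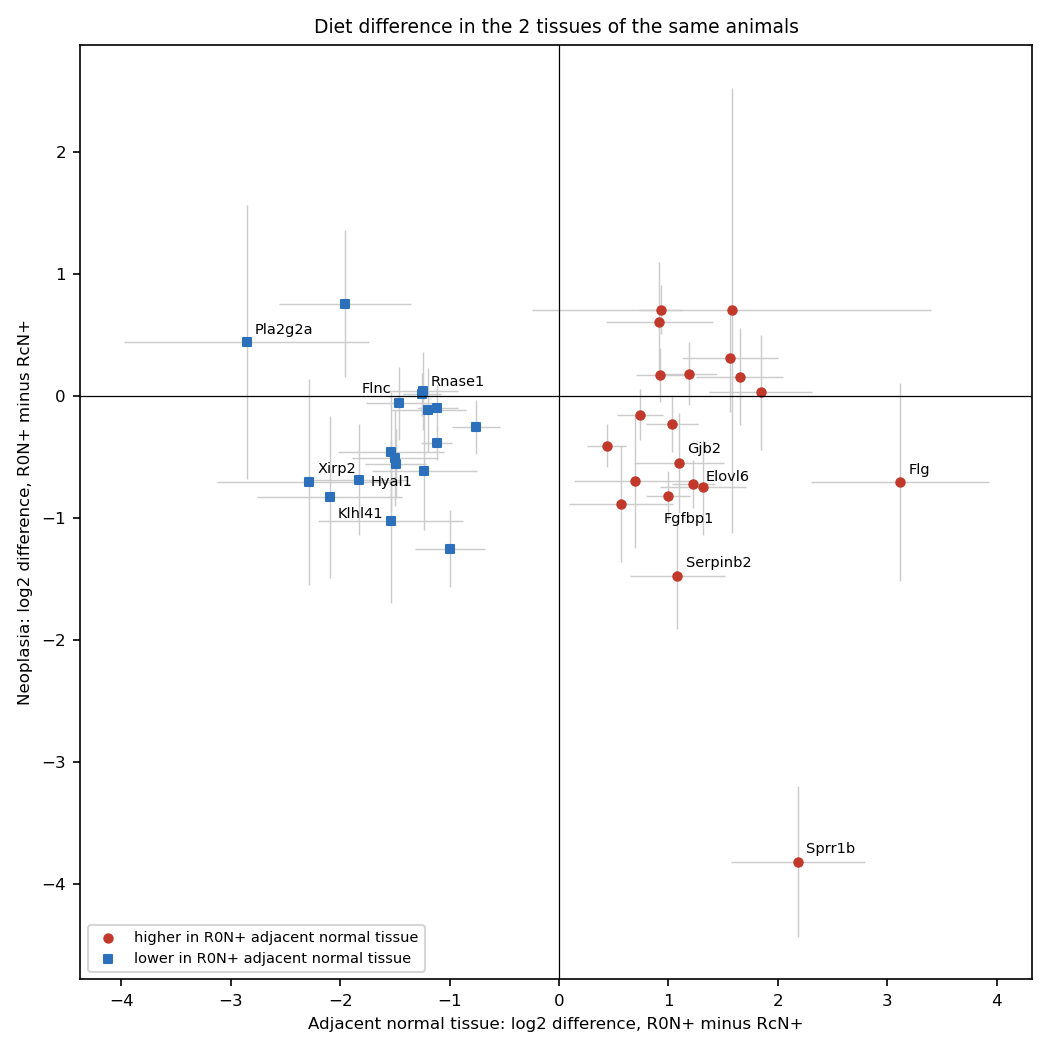
Log2 difference R0N+ minus RcN+ in adjacent normal tissue (horizontal axis) and in neoplasia (vertical axis) for the leading genes and the named squamous, stress and skeletal muscle genes. Bars are standard errors of the fit, circles mark genes higher and squares genes lower in R0N+ adjacent normal tissue. Sprr1b lies at 2.18 and -3.81, and Flg, Serpinb2, Elovl6, Fgfbp1 and Gjb2 also lie below 0 on the vertical axis.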

How the data were processed

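The authors deposited log2 values per probe set for 8 arrays, and the submitters' processing notes name Affymetrix Expression Console and RMA (background correction, normalisation between arrays, probe summary), with no version or genome build. Of 70580 probe sets, 23446 were paired with 1 symbol in the platform annotation, 505 with several and 46629 with none here. By Entrez ID 22077 matched and 1 symbol was updated. Each of 22093 genes took its probe set of highest mean (1182 had more than 1). Arrays give no read depth, so precision is limited by the number of arrays. The ceiling, 19.93, was met by 14 genes on an adjacent normal array.

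A mean per group was fitted over all 8 arrays with limma 3.58.1 in R 4.3.3 (lmFit, eBayes, 4 residual degrees of freedom), and the diet difference between tissues with a term per animal. The script was tested on simulated data. Single genes were tested only through limma. Replicate numbers do not pair the diets, since they name different animals. Differences are R0N+ minus RcN+.

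Named genes had a usual symbol, diets without overlap and a higher-diet mean no lower than the median of the table. They were the 15 of the widest gap in each direction, up to 4 per list and all measured riboflavin genes, other genes being named after their values were seen. The 35 lists held 1251 entries, 1142 of them measured. Members and lists were chosen with earlier results of these data known. Promoters and microRNAs are from RefSeq (GRCr8), which held promoters for 21 of the 30 leading genes. Alternatives were a filter on low values, quantile and cyclic loess normalisation, the 4 adjacent normal arrays alone, replicate and animal blocks, a variance trend, array weights, the array SD as a covariate, the mean of probe sets, and leaving out each array.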

Additional observations from a re-analysis of the deposited data

Results flagged for a closer look

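The named genes below had both R0N+ arrays on one side of both RcN+ arrays in adjacent normal tissue and on the other side in neoplasia of the same animals. The pattern was not particular to them. Of all 2614 genes higher without overlap in R0N+ adjacent normal tissue, 354 (13.5%) were lower in R0N+ neoplasia. Of all 1940 lower genes, 309 (15.9%) were higher there. Values are the diet difference in adjacent normal tissue minus that in neoplasia, on the log2 scale, tested by limma with a term per animal. Each had an adjusted p of 1, so none passed, and the named genes were chosen on the adjacent normal values. Among epithelial genes, Sprr1b (6.0), Serpinb2 (2.55), Fgfbp1 (1.82), Gjb2 (1.65), Ovol1 (0.85) were higher in R0N+ adjacent normal tissue and lower in R0N+ neoplasia. Elovl6 had the same pattern at 1.95. So did the repair genes Ogg1 (0.85), Xrcc1 (0.41), Atr (0.38), and Smox (0.53), Cdc45 (0.41), Cpox (0.76), Il1r2 (0.65), Tubb3 (0.43) and Hyou1 (0.23). The reverse pattern, lower in R0N+ adjacent normal tissue and higher in R0N+ neoplasia, was that of Cd36 (-2.57), a fatty acid uptake receptor gene, Cd68 (-0.96), a macrophage marker, Cfd (-0.80) and Cd8b (-0.43).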

How the results depend on the processing

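The count of genes at an adjusted p under 0.05 was 0 under every alternative that kept all arrays. With an array left out it ran from 0 to 49. The 49 came without RcN+ array 1 (3 higher and 46 lower, with 4 named genes among them, Defb18, Pla2g2a, C1s and Cnn1). Without RcN+ array 2 there was 1, Mir653, which had 5.52 and 4.87 in R0N+ and 12.07 and 4.85 in RcN+ tissue. A lone RcN+ array is then assumed to vary like the other groups. The 524 genes at an unadjusted p under 0.05 (292 higher) became 206 (83 higher) in the upper 50 percent of genes, 871 under quantile normalisation (473 higher), 871 under cyclic loess (435 higher), 195 with the 4 adjacent normal arrays alone (fewer residual degrees of freedom), 192 with array weights (87 higher) and 1426 with the array SD as a covariate (639 higher). With an array left out the count ran from 592 to 3357. The 4554 genes without overlap became 2098 among the upper 50 percent (962 higher), since fewer genes entered, and ran from 10540 to 16862 with an array left out. Where no reason is given, the cause was not tested.

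With the replicate number as a replicate block the count at an unadjusted p was 400, and with the numbers crossed, a setting added after seeing the data because same-numbered arrays deviated in opposite directions (correlation -0.53), it was 755. The count at an adjusted p was 0 in both.

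Of 137 named genes, 130 had no overlap, of which 107 still had none after quantile normalisation and 108 after cyclic loess. Directions turned only for small differences: Slc52a2 was -0.0171 under quantile normalisation, -0.00657 under loess and -0.0293 with the SD covariate, Rfk 0.0704 and Enpp1 0.039 with that covariate, and Acp1 -0.0122 and RT1-Bb 0.0126 with the mean of probe sets. Leaving out an array gave -0.17 to 0.27 for Slc52a2, -0.26 to 0.24 for Rfk, -0.056 to 0.47 for Acp1, -1.01 to 0.48 for Enpp1 and -0.22 to 0.04997 for Pdxk. No gene passed for the difference between tissues without the animal term either, where 548 had an unadjusted p under 0.05.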

Other observations

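Fat cell genes moved unevenly. Of 22 adipocyte and lipid droplet genes 5 (22.7%) were lower without overlap in R0N+ adjacent normal tissue and 1 (4.55%) was higher. Plin4, which coats lipid droplets, had 6.58 and 6.33 in R0N+ and 6.80 and 9.77 in RcN+ tissue (-1.83, SE 0.93), which was -0.34 without RcN+ array 2 and -3.31 without RcN+ array 1. Cd36 had 7.81 and 7.28 in R0N+ and 8.03 and 9.59 in RcN+ tissue (-1.26, SE 0.69), which was -0.48 without RcN+ array 2 and -2.04 without RcN+ array 1. The adipocyte hormone gene Adipoq overlapped, with 4.56 and 5.00 in R0N+ and 5.11 and 4.99 in RcN+ tissue. Glandular, thyroid and airway genes had 4 of 22 (18.2%) higher without overlap and 0 lower, at values near or below the table's median, such as Foxj1 with 4.61 and 4.55 in R0N+ and 4.45 and 4.20 in RcN+ tissue. Of 8 erythroid genes none lay on either side (0 and 0). Of 16 nerve and Schwann cell genes 2 (12.5%) were higher and 1 (6.25%) lower. Of 24 iron and haem genes 2 (8.33%) were higher and 0 lower.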
